A study of Mus musculus with 24 samples.

Results

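The genes described here encode the constitutive proteasome of mouse B cells. They were chosen by symbol from the deposited count tables, as every gene of the Psma, Psmb, Psmc and Psmd series other than the immunoproteasome genes Psmb8 and Psmb9, together with the activator genes Psme1, Psme2 and Psme3 and the assembly factor gene Pomp. This gave 42 of the 27179 genes listed. Of these, 40 had at least 0.5 CPM (counts scaled to the library's total) in at least 2 libraries of every stage and were tested. Psma8, an alpha subunit known from testis, and Psmb11, the beta subunit of the thymic cortex, were under that filter, with at most 11 and 1 counts in any library. Psmb10 matches the rule but encodes an inducible subunit of the immunoproteasome. Psmc3ip also matches it, although its product acts in homologous recombination and is no proteasome subunit.

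RNA of lymph node B cells from C57BL/6 mice was sequenced in 24 libraries, with 4 genotypes and 3 stages and 2 biological replicates of every combination. Control mice (Cd23T/+) carried the Cd23-Cre transgene. PU.1 cKO mice (Spi1fl/fl Cd23T/+) carried floxed Spi1 alleles as well, SpiB KO mice (Spi1fl/fl Cd23+/+ Spib-/-) had floxed Spi1 and no Cre, and PU.1 SpiB DKO mice (Spi1fl/fl Cd23T/+ Spib-/-) combined the floxed Spi1 alleles and Cre with the Spib null allele and are called double mutants below. Cells were naive, or cultured for 48 h with CD40L + IL-4, which mimics help from T cells, or with LPS + IL-4, in which a bacterial product stimulates the cells. Cre was driven by regulatory sequences of Cd23 in a BAC transgene, so deletion of Spi1 starts as B cells mature and Spib was absent throughout life, and SpiB KO is the 1 group without Cre.

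The counts on genes totalled 14231188 to 18194629 per library in naive cells, 9598674 to 61640683 after CD40L + IL-4 and 22757630 to 73658850 after LPS + IL-4. The B cell markers Cd79a, Cd79b, Ms4a1 and Pax5 were above 0 in every library, and ranged over the libraries from 439 to 3122, 678 to 2662, 496 to 3086 and 80.6 to 343 CPM in that order. Spi1, the gene of PU.1, was at 155 and 174 CPM in naive control libraries and at 59.5 and 53.2 CPM in the PU.1 cKO of that stage. The double mutant libraries held 103 and 110 CPM in naive cells, 32.5 and 25.6 CPM after CD40L + IL-4 and 63.9 and 58.8 CPM after LPS + IL-4, where control libraries held 72.0 and 60.7 CPM. In naive cells Spi1 fell by 1.54 in PU.1 cKO and by 0.63 in PU.1 SpiB DKO, and these differed in the interaction test (0.93, edgeR adjusted p = 0.049), so at the level of counts the naive double mutant was a partial loss of Spi1. The Spi1 ranges of the LPS + IL-4 double mutant and control overlap (log2 fold change -0.11, edgeR adjusted p = 0.45), and because only 1 exon is deleted, counts over the whole gene are a weak check of the allele. From read coverage of that exon, the study reported complete deletion after CD40L + IL-4 and similarly high deletion after LPS + IL-4. In naive double mutant cells it reported marked retention. Spib fell by 3.83 to 5.50 on the log2 scale in the SpiB KO and the double mutant of each stage.

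The proteasome is the main protease of the cytosol and nucleus, and degrades proteins tagged with ubiquitin. Its 20S core is a barrel of alpha and beta rings, in which Psmb5, Psmb6 and Psmb7 carry the chymotrypsin-like, caspase-like and trypsin-like activities. The 19S cap has a base, whose 6 Psmc ATPases unfold the substrate, and a lid, whose Psmd14 removes ubiquitin, and the 11S cap of Psme1 and Psme2, or of Psme3, opens the core without ubiquitin. In B cells the immunoproteasome subunits Psmb8, Psmb9 and Psmb10 can replace the constitutive catalytic subunits, and antibody-secreting cells are known to depend on proteasome capacity.

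Promoters of the members were examined for 3 short sequences because the study removed 2 ETS factors. RefSeq start sites (GRCm38.p6) gave windows of 300 bases, from 250 before to 50 after the start, for 35 of the 42 members. The core of the sites bound by many ETS factors, CCGGAAG, lay in the windows of 13 of the 35 members (37.1%) on either strand, against 9.93% of all genes with a window. Psmc3ip is among the 13. The 27025 genes with a window were not limited to those expressed in B cells, and a comparison with expressed genes was not tested. The core preferred by PU.1 and SpiB, GAGGAAGT, lay in 3 members (8.57%) against 3.69% of genes. The antioxidant response element core TGACNNNGC, bound by the proteasome gene activator Nfe2l1, lay in 5 members (14.3%) against 14% of genes. The motifs share no position in these members. A match of letters is a description and shows no binding. Some of the matches in members described below are shown on the strand of the gene, with the motif in capitals. Capitals read CTTCCGG or ACTTCCTC where the motif lies on the opposite strand. The GAGGAAGT matches shown begin 121 (Psmc1) and 199 (Psma6) bases before the start site, and that of Psmc2, 9 bases before it, is not shown. CCGGAAG matches not shown include those of Psma6, Psme3 and Psmd13.
Psmd12 (chr11:107479501-107479527, plus): gagcgggcgaCTTCCGGtgcgagtgac
Psmc6 (chr14:45329714-45329740, plus): ggcgggccagCCGGAAGgggcggagcc
Psmd6 (chr14:14120974-14121000, minus): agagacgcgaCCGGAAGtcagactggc
Psmc1 (chr12:100110164-100110190, plus): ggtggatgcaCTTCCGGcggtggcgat
Psmc1 (chr12:100110071-100110098, plus): cttcgcccgtGAGGAAGTtggtcccgat
Psma6 (chr12:55398616-55398643, plus): caccttgaaaACTTCCTCttttggccac
Psmb5 (chr14:54618024-54618052, minus): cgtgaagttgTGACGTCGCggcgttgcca
Psmb6 (chr11:70525338-70525366, plus): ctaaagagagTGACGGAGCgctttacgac
The Psmb5 and Psmb6 matches begin 47 and 9 bases before the start site, on the strand of the gene. The Nfe2l1 core was about as frequent in members (14.3%) as in all genes (14%). Its other matches in members begin 31 (Psmd9), 227 (Psmc6) and 247 (Psmd12) bases before the start site. The stretches printed for Psmd12, Psmc6 and Psmd6, and the upper stretch of Psmc1, hold the general ETS core.

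In control cells the first question was how the members change when naive B cells are activated. Their counts made up 0.439 and 0.419% of all counts in naive control libraries, 0.633 and 0.662% after CD40L + IL-4 and 0.938 and 1.05% after LPS + IL-4. The 3 stages do not overlap in this share. Among the 40 members tested, 27 were higher and 3 lower after CD40L + IL-4 than in naive control cells, and 35 were higher and 2 lower after LPS + IL-4. Of all 13583 genes in that fit, 32.9% were higher and 32.2% lower after CD40L + IL-4, and 39.2% were higher and 38.1% lower after LPS + IL-4, so the members lay to the higher side of the background. A member passed the test at an edgeR adjusted p under 0.15, and was called DE where the fold also exceeded 1.5 and the deposited log2 RPKM averaged above 0. By that rule 18 members were DE and higher and 2 DE and lower after CD40L + IL-4 (17.8% and 17.5% of all genes), and 31 and 1 after LPS + IL-4 (25.4% and 22.5%). The median log2 fold change of the members was 0.49 after CD40L + IL-4 and 1.14 after LPS + IL-4, against medians of 0.00 and 0.00 over all genes. The counts after CD40L + IL-4 come from another deposited table than those of naive and LPS + IL-4 cells, so stage and table cannot be told apart where CD40L + IL-4 is compared.

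**Figure D1:**
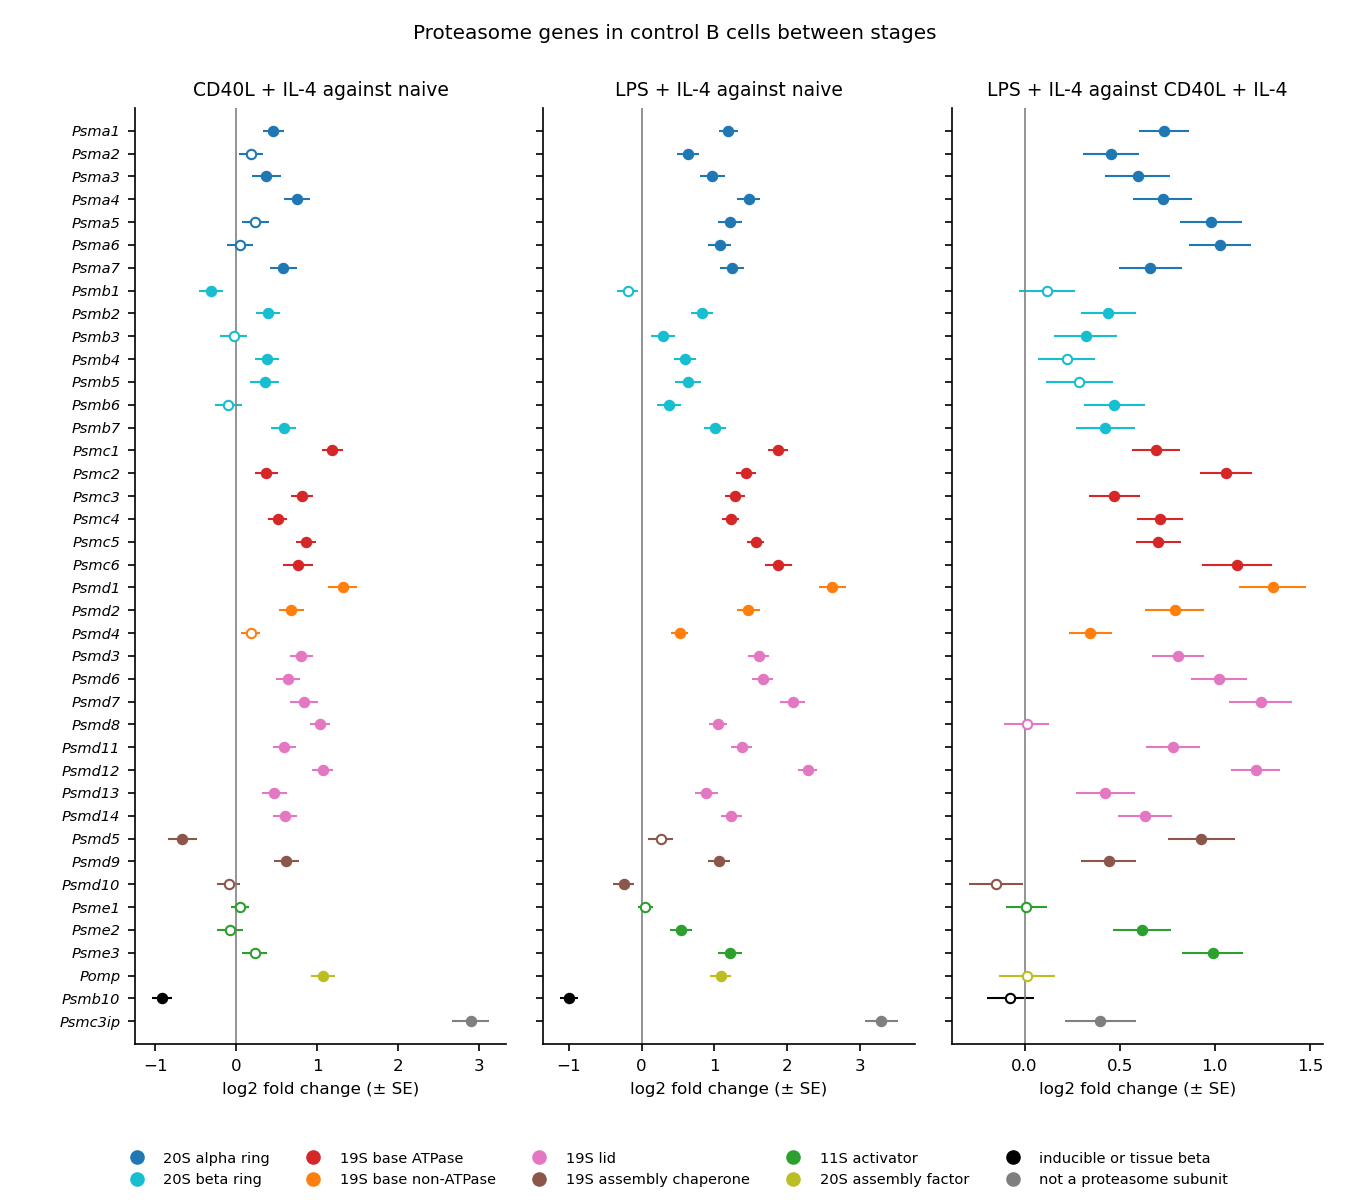
Log2 fold change (± SE) of 40 proteasome genes between stages in control B cells, 2 libraries a stage, in 3 panels with separate axes. Filled points passed at an adjusted p under 0.15, and colors give the role. The 19S base and lid lie to the right in the LPS + IL-4 panel, and Psmb10 lies to the left of 0 in both comparisons with naive cells.

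The 19S base and lid rose almost throughout. After CD40L + IL-4, 16 of its 17 subunits rose, with a median log2 fold change of 0.76, and after LPS + IL-4 all 17 rose, with a median of 1.47. The 20S rings, with 14 members tested, had medians of 0.36 and 0.90, and 8 and 13 of them rose. Psmd1, a scaffold of the base, was at 88.4 and 83.1 CPM in naive control, 242 and 185 CPM after CD40L + IL-4 and 473 and 580 CPM after LPS + IL-4 (TMM over the 24 libraries). The 3 ranges do not overlap, and its log2 fold changes were 1.32 ± 0.18 (SE, adjusted p = 4.5e-06) and 2.62 ± 0.19 (adjusted p = 3e-10). The span of Psmd1 overlaps that of Htr2b over 18686 bases in the annotation, and the strand used in counting is not stated, so its value is uncertain to that extent.

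Psmd12, a lid subunit, was at 54.0 and 48.7 CPM in naive control, 104 and 111 CPM after CD40L + IL-4 and 228 and 271 CPM after LPS + IL-4. Its log2 fold change was 1.07 ± 0.13 (adjusted p = 1.3e-06) after CD40L + IL-4 and 2.28 ± 0.13 (adjusted p = 2.4e-11) after LPS + IL-4. Psmd7, the lid partner of the deubiquitinase Psmd14, rose by 0.84 and 2.08. The ATPases Psmc1 and Psmc6 rose by 1.19 and 0.76 after CD40L + IL-4 and by 1.87 and 1.88 after LPS + IL-4. All 6 ATPases rose in both cultures. Psmc3ip rose by 2.90 and 3.30, the largest values among the members, from 2.59 and 3.27 CPM in naive cells, and it is not counted in the base and lid.

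The other DE members of the base and lid after CD40L + IL-4 were the lid subunits Psmd8 (1.04), Psmd3 (0.80), Psmd6 (0.64), Psmd14 (0.60) and Psmd11 (0.59), the base scaffold Psmd2 (0.68) and the ATPases Psmc5 (0.86) and Psmc3 (0.81), given as log2 fold changes. After LPS + IL-4 the same genes had 1.05, 1.61, 1.66, 1.23, 1.37, 1.47, 1.57 and 1.28 in that order, and Psmc2 (1.43), Psmc4 (1.22) and Psmd13 (0.89) were DE too. All 7 alpha subunits were DE after LPS + IL-4, from Psma2 (0.64) and Psma3 (0.97) through Psma6 (1.07), Psma1 (1.19), Psma5 (1.21) and Psma7 (1.24) to Psma4 (1.47), and of these Psma4 (0.75) was DE after CD40L + IL-4. The alpha subunits form the outer rings through which substrates enter. Of the structural beta subunits Psmb2 (0.83) and Psmb4 (0.60) were DE after LPS + IL-4.

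Of the catalytic subunits, Psmb7 and Psmb5 rose in both cultures. Psmb7 was at 133 and 109 CPM in naive control, 169 and 194 CPM after CD40L + IL-4 and 219 and 269 CPM after LPS + IL-4, and rose by 0.59 ± 0.16 (adjusted p = 0.0037) and 1.01 ± 0.16 (adjusted p = 1.1e-05). Psmb5 rose by 0.35 and 0.64. Psmb6 was at 152 and 138 CPM in naive control, at 129 and 142 CPM after CD40L + IL-4, where it did not pass (log2 fold change -0.10), and at 171 and 205 CPM after LPS + IL-4 (0.37, adjusted p = 0.046). Psmb1, a structural beta subunit, fell by 0.31 after CD40L + IL-4 and was at -0.19 after LPS + IL-4, which did not pass. Psmb1 was the member with the highest log2 RPKM in naive control (8.50 ± 0.11, SD, n = 2), a scale that corrects for gene length, and Psmb4 was the highest after CD40L + IL-4 (8.56 ± 0.13) and after LPS + IL-4 (8.78 ± 0.10, in a table normalized apart from the others). Over the 40 members the median log2 RPKM was 6.21 in naive control, 6.70 after CD40L + IL-4 and 7.42 after LPS + IL-4, against 2.87, 2.84 and 3.37 over all genes listed in those tables.

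The inducible subunit moved the other way. Psmb10 was at 232 and 225 CPM in naive control, 110 and 133 CPM after CD40L + IL-4 and 110 and 120 CPM after LPS + IL-4. Both cultures lie below naive cells without overlap and overlap each other, and the log2 fold changes were -0.92 ± 0.12 (adjusted p = 4.2e-06) and -0.99 ± 0.12 (adjusted p = 6.6e-07). Psmb10 ranked 5 among the members by log2 RPKM in naive control and 24 after CD40L + IL-4. Of the other immunoproteasome genes, Psmb8 fell by 0.26 (adjusted p = 0.12) and 0.24 (adjusted p = 0.13), and Psmb9 was at a log2 fold change of -0.00 after CD40L + IL-4 and fell by 0.71 after LPS + IL-4 (adjusted p = 2.5e-05).

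The assembly factors and caps differed among themselves. Pomp, which helps build the 20S core, was at 111 and 93.4 CPM in naive control, 189 and 241 CPM after CD40L + IL-4 and 203 and 232 CPM after LPS + IL-4, and rose by 1.07 and 1.09. Among the 19S chaperones, Psmd9 rose by 0.62 and 1.06, while Psmd5, a chaperone of base assembly, was DE and lower after CD40L + IL-4 (-0.67 ± 0.18, adjusted p = 0.0037) and did not pass after LPS + IL-4 (0.26). Psmd10, known as the oncoprotein gankyrin, did not pass after CD40L + IL-4 (-0.09) and fell by 0.24 after LPS + IL-4 (adjusted p = 0.13), and its 2867 bases of overlap with Atg4a make its counts uncertain. The same limit holds for Psma3, Psmd13 and Pomp, which overlap other annotated genes over 4263, 1481 and 1116 bases, and some further members have shorter overlaps. The activator Psme1 had log2 fold changes of 0.05 and 0.05, neither of which passed. Psme2 did not pass after CD40L + IL-4 (-0.08) and rose by 0.54 after LPS + IL-4, and Psme3, the nuclear activator, was at 0.23 (not passed) and rose by 1.22.

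Between the cultures, 32 of the 40 members were higher after LPS + IL-4 than after CD40L + IL-4 and 0 were lower, where 30.0% of all genes were higher and 29.8% lower by edgeR, and 22 were DE and higher against 17% of all genes. The largest rises were Psmd1 (1.30), Psmd7 (1.24), Psmd12 (1.21) and Psmc6 (1.12). The other DE members were Psmc2 (1.06), Psmc4 (0.71), Psmc5 (0.70) and Psmc1 (0.69) of the ATPases, Psmd6 (1.02), Psmd3 (0.81), Psmd2 (0.79), Psmd11 (0.78) and Psmd14 (0.63) of the base and lid, Psma6 (1.03), Psma5 (0.98), Psma1 (0.73), Psma4 (0.73), Psma7 (0.66) and Psma3 (0.60) of the alpha ring, the chaperone Psmd5 (0.93), and Psme3 (0.99) and Psme2 (0.62). Psmb6 (0.47) and Psmb7 (0.42) passed and were not DE. All 7 alpha subunits tested and 16 of the 17 of the base and lid were among the 32, but 4 of the 7 beta subunits. Pomp (0.01), Psme1 (0.01) and Psmd8 (0.01) had the smallest differences, and Psmb10 (-0.08), Psmb5 (0.29) and Psmb4 (0.22) also did not pass. Leaving out any 1 control library left 26 to 32 members past the test.

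**Figure D2:**
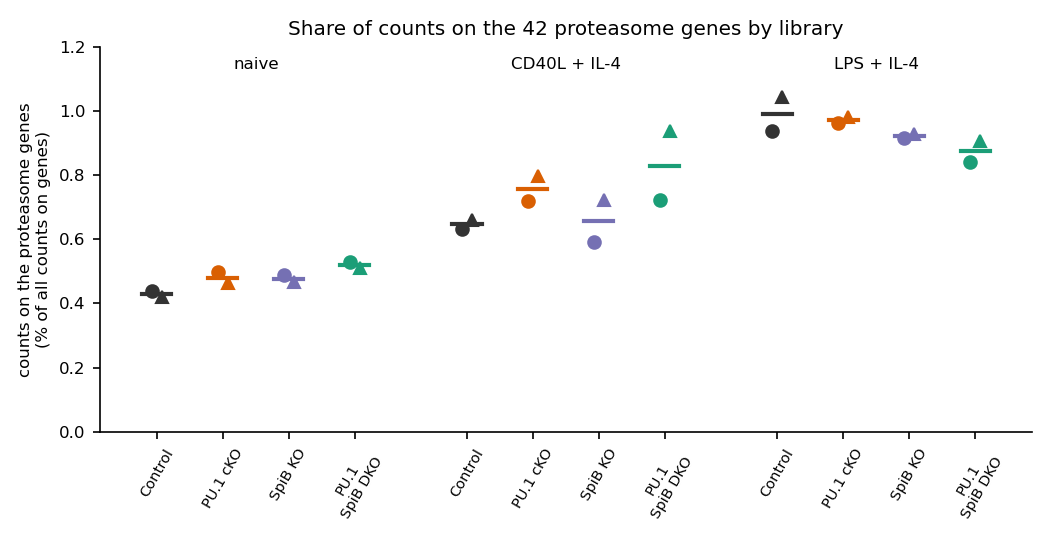
Percent of all counts on genes that fall on the 42 proteasome genes, by library. Circles are replicate 1, triangles replicate 2 and bars the mean of the 2. Naive libraries lie between 0.419 and 0.531%, and the CD40L + IL-4 PU.1 SpiB DKO libraries lie at 0.722 and 0.936%.

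The second question was what the loss of PU.1 and SpiB does to the members within each stage. The share of counts was 0.429% ± 0.0141 (SD, n = 2) in naive control and 0.521% ± 0.0139 in naive PU.1 SpiB DKO, 0.647% ± 0.02 and 0.829% ± 0.152 after CD40L + IL-4, and 0.992% ± 0.076 and 0.875% ± 0.0467 after LPS + IL-4. The double mutant share was thus above control in naive and CD40L + IL-4 cells and below it after LPS + IL-4, with no overlap between the 2 groups in each stage. In naive cells both single losses also lay above control, at 0.497 and 0.464% (PU.1 cKO) and 0.488 and 0.466% (SpiB KO). After CD40L + IL-4 PU.1 cKO lay above control (0.720 and 0.796%), and SpiB KO overlapped it (0.592 and 0.722%). After LPS + IL-4 SpiB KO lay below control (0.917 and 0.928%), and PU.1 cKO overlapped it (0.963 and 0.983%). The share of counts on Rn45s, the ribosomal RNA precursor gene, was 3.62% in naive control replicate 1 against 0.185% in replicate 2, and 6.64% in CD40L + IL-4 PU.1 SpiB DKO replicate 1 against 0.464% in replicate 2. Without Rn45s the members took 0.456 and 0.420% in naive control, 0.533 and 0.513% in naive PU.1 SpiB DKO, 0.645 and 0.665% in CD40L + IL-4 control and 0.773 and 0.941% in the double mutant of that culture, still without overlap. After LPS + IL-4 and without Rn45s, SpiB KO took 0.925 and 0.945% and overlapped control (0.943 and 1.05%). With 1 library left out, the CD40L + IL-4 double mutant lay 0.0744 to 0.289 percentage points above control. A two-sided exact permutation test on 2 and 2 libraries can give no p under 0.33. Replicates of the same number moved together in the members. In naive cells replicate 1 was the higher of the pair in all 4 genotypes for 27 of the 40 members, against 18.3% of all genes. After CD40L + IL-4 and after LPS + IL-4, replicate 2 was the higher in all 4 genotypes for 27 and 28 members, against 13.9% and 19.4% of all genes.

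In naive cells, 8 of the 40 members were higher in PU.1 SpiB DKO than in control and 0 lower, where 18.2% of all genes were higher and 16.6% lower, and none was DE. The members' share on the higher side was thus close to the background in this fit, which has no replicate block. With the replicate number as a block, edgeR passed 19 members as higher and 1 as lower. Voom with quantile normalization passed 15 members. The shares of all genes with the block or by voom are not given here. The median log2 fold change was 0.16, against 0.00 over all genes, and 37 of the 40 values were above 0. The alpha subunit Psma4 was at 74.4 and 74.1 CPM in control and 103 and 103 CPM in PU.1 SpiB DKO, without overlap, a log2 fold change of 0.47 ± 0.10 (adjusted p = 0.0097). Psma5 rose by 0.47, Pomp by 0.43 (adjusted p = 0.046) and Psmd8, a lid subunit, by 0.42. The others were Psmb2 (0.39), Psma7 (0.35), Psmd6 (0.33) and Psmd7 (0.30). No ATPase of the base and no 11S subunit passed, and Psmb5 (0.27), Psmb6 (0.12), Psmb7 (0.16), Psme1 (0.17), Psme2 (0.15) and Psme3 (0.19) did not either. Psmb10 was at -0.21, which did not pass (adjusted p = 0.20).

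Neither single loss called a member in naive cells by edgeR or DESeq2, and voom with quantile normalization called 1 in PU.1 cKO but 0 in the other. In PU.1 cKO 17.2% of all genes passed and 3 members had an unadjusted p under 0.05, and for SpiB KO these were 12.6% and 1 member. The medians were 0.12 and 0.11, with 34 and 36 of 40 values above 0. Over the 4 genotypes 2 members passed (31.1% of all genes), Psma4 and Psmd8. No member passed the test of the interaction of the losses (0.936% of all genes), and 0 members had an unadjusted p under 0.05 in it. In naive cells the summed levels of 5 T cell markers were 241 to 359 CPM in the groups without SpiB and 9.98 to 31.4 CPM in control and PU.1 cKO, and those of 5 plasmacytoid dendritic cell markers were 966 to 1400 CPM against 159 to 252 CPM. The T cell sums were almost wholly Cd4 and Cd8a, which plasmacytoid dendritic cells can also carry, while Cd3e, Cd3d and Cd3g, the defining markers, were at most 1.24 CPM in every naive library. All 5 dendritic markers (Siglech, Bst2, Ccr9, Klk1 and Cox6a2) were higher in each library without SpiB than in each library of control and PU.1 cKO. Per the study, cells for RNA were sorted as CD3- B220+ CD138-. The part of these markers in the naive differences was not tested. Less RNA per cell and fewer cells of a type cannot be told apart in bulk RNA. Without control replicate 2 or without PU.1 SpiB DKO replicate 1 the number of members past the test in the double mutant was 1. Without control replicate 1 it was 12, and 3 members then passed for PU.1 cKO, 2 for SpiB KO and 5 over the 4 genotypes.

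After CD40L + IL-4, 12 of the 40 members were higher in PU.1 SpiB DKO than in control and 0 lower (12.5% of all genes were higher and 12.7% lower), and Psmd7 and Psmb6 were DE and higher (5.84% of all genes). The 12 are 6 of the 14 ring subunits, 4 of the 17 base and lid subunits and 2 of the 3 chaperones. Psmd7 was at 144 and 144 CPM in control, 176 and 227 CPM in PU.1 cKO, 119 and 165 CPM with SpiB KO and 221 and 273 CPM in the double mutant. The double mutant lies above control without overlap, with a log2 fold change of 0.78 ± 0.20 (adjusted p = 0.026). Psmb6, with the caspase-like activity, was at 134 and 145 CPM in control, 145 and 180 CPM in PU.1 cKO, 129 and 157 CPM with SpiB KO and 192 and 247 CPM in the double mutant. It rose by 0.65 ± 0.18 (adjusted p = 0.040) in the double mutant, whose libraries lie above all others of the culture.

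Psmb5 was at 73.3 and 81.1 CPM in control and 104 and 127 CPM in PU.1 SpiB DKO and rose by 0.58 ± 0.19 (adjusted p = 0.074). Psma2 rose by 0.56, the lid subunit Psmd3 by 0.51, Psmb2 by 0.49 and Psma7 by 0.49. The chaperones Psmd5 (0.48) and Psmd9 (0.42), the lid subunits Psmd12 (0.46) and Psmd8 (0.45) and the beta subunit Psmb3 (0.44) made up the rest. Psmb7 (0.34), Pomp (0.24), Psme1 (0.13), Psme2 (0.40), Psme3 (0.36) and Psmb10 (0.08) did not pass. The median of the 40 members was 0.36, against 0.00 over all genes, and 39 values were above 0. The 12 calls depend on few libraries: without control replicate 1 there was 1 and without PU.1 SpiB DKO replicate 2 there were 0. All 24 libraries in 1 fit gave 29, for which the share of all genes is not given here. Plasma cell marker sums (5 genes) in this culture were 2202 and 2684 CPM in PU.1 SpiB DKO and 1231 and 1412 CPM in control. Most of each sum was Xbp1, at 1546 and 1863 CPM in the double mutant and 812 and 950 CPM in control, and Irf4, at 582 and 726 CPM and 401 and 443 CPM, both of which activated B cells also express. Sdc1, which encodes CD138, was at 18.4 and 18.1 CPM against 4.32 and 4.17 CPM. Prdm1 was at 42.8 and 52.5 CPM against 8.38 and 9.06 CPM, and Igj at 12.2 and 23.4 CPM against 4.85 and 5.42 CPM. The part of these genes in the difference was not tested, and T cell marker sums were at most 2.73 CPM.

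**Figure D3:**
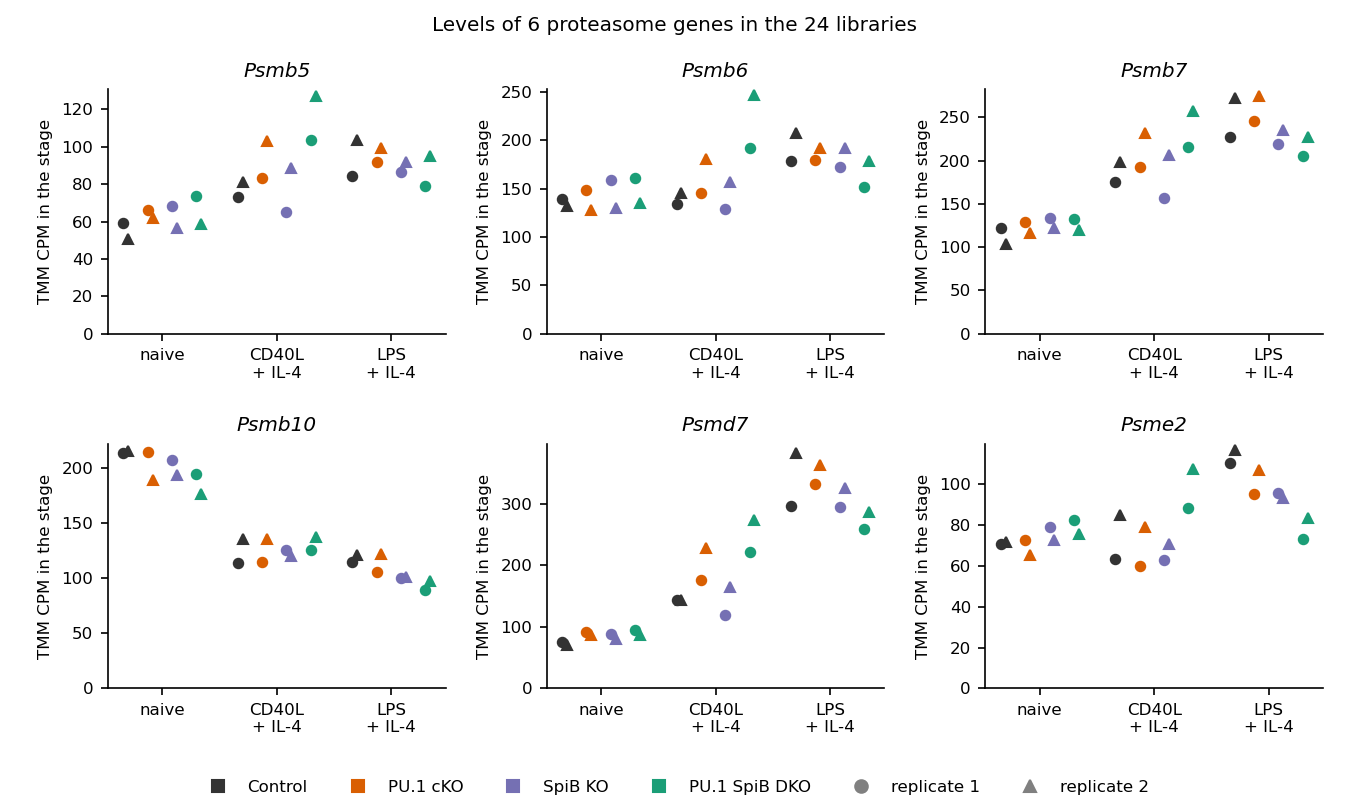
Levels of 6 members (CPM normalized by TMM within each stage) in the 24 libraries, by stage and genotype. Circles are replicate 1 and triangles replicate 2. The double mutant libraries of Psmb6 and Psmd7 stand above their controls after CD40L + IL-4 and those of Psme2 stand below after LPS + IL-4, and stages are normalized apart.

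In PU.1 cKO after CD40L + IL-4, 1 member rose by edgeR, Psmd8, from 299 and 322 CPM to 423 and 439 CPM (0.47 ± 0.14, adjusted p = 0.068), where 7.81% of all genes were higher, and the median of the members was 0.22. Without control replicate 1 or PU.1 cKO replicate 2 it did not pass. DESeq2 gave 2 members, edgeR with no filter on low counts 3 and all 24 libraries in 1 fit 10. The shares of all genes in such alternative fits are not given here. In SpiB KO no member passed (0.134% of all genes passed) and 0 had an unadjusted p under 0.05, with a median of -0.00. Over the 4 genotypes 6 members passed (22.4% of all genes), which was 1 without control replicate 1, 2 without PU.1 cKO replicate 2, 0 without PU.1 SpiB DKO replicate 2, 11 without SpiB KO replicate 2, 12 with no filter and 22 with all 24 libraries in 1 fit, and none passed the interaction (1.17% of all genes), in which 1 member had an unadjusted p under 0.05. The interaction values were above 0 for 39 of the 40 members, with a median of 0.12 that was -0.02 to 0.29 with 1 library left out.

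After LPS + IL-4 the direction was lower. In PU.1 SpiB DKO 22 of the 40 members were lower than in control and 1 higher, where 22.4% of all genes were lower and 25.6% higher by edgeR, and none was DE. The members' share on the lower side was thus above the background. The median was -0.21, against 0.01 over all genes, and 39 values were below 0. Psme2, the beta subunit of the interferon-inducible 11S activator, was at 110 and 117 CPM in control, 95.3 and 107 CPM in PU.1 cKO, 95.9 and 93.1 CPM with SpiB KO and 73.2 and 83.4 CPM in the double mutant. Only the double mutant lies below every other library, and the log2 fold change was -0.54 ± 0.09 (adjusted p = 0.0025). Psmc6 was at 205 and 251 CPM in control and 168 and 179 CPM in PU.1 SpiB DKO, and fell by 0.40 (adjusted p = 0.016). Psma5 fell by 0.38, Psma6 and Psme3 by 0.35 each, and Psmb10 by 0.34 (adjusted p = 0.018).

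By role, 5 of the 7 alpha subunits, 2 of the 7 beta subunits, 3 of the 6 ATPases, all 3 non-ATPase subunits of the base, 4 of the 8 lid subunits, 1 of the 3 chaperones and 2 of the 3 11S subunits fell. Of the catalytic subunits Psmb6 fell by 0.23 (adjusted p = 0.14), while Psmb5 (-0.11) and Psmb7 (-0.21) did not pass. Pomp was at -0.02 and Psme1 at -0.17, and neither passed. Psmd8 was the exception, rising from 296 and 327 CPM in control to 350 and 372 CPM in PU.1 SpiB DKO (0.21 ± 0.08, adjusted p = 0.082). It was also the member called higher in the double mutant of all 3 stages. In naive, CD40L + IL-4 and LPS + IL-4 cells in turn, Psmd8 was at 0.28, 0.47 and 0.16 in PU.1 cKO, of which the second passed, and at 0.16, 0.17 and 0.04 in SpiB KO, none of which passed. It lies 15.35 Mb from Spib on chromosome 7. Psmc3, an ATPase gene 22.9 kb from Spi1, had log2 fold changes of -0.09, 0.22 and 0.02 in PU.1 cKO of the 3 stages, and none passed.

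After LPS + IL-4, libraries with the same replicate number deviated together across genes, with correlations of 0.386 to 0.514. With the replicate number as a block, 34 members were lower and 1 higher in PU.1 SpiB DKO, where 27.8% of all genes were lower and 30.2% higher, and 3 members passed for each single loss (29.8% of all genes with PU.1 cKO, 14.2% with SpiB KO). Without the block, PU.1 cKO called Psmc3ip (-0.30, adjusted p = 0.13) where 7.80% of all genes were lower, and SpiB KO called 0 where 5.13% passed, with 2 members at an unadjusted p under 0.05 and 3 calls without control replicate 1. Psmc3ip did not pass without any 1 of the 4 libraries compared. With the block 31 members passed over the 4 genotypes (64.0% of all genes), and 13 without it (46.8%). That 13 was 20 without control replicate 1, 7 without PU.1 cKO replicate 1, 4 without PU.1 cKO replicate 2, 7 without SpiB KO replicate 2 and 1 without PU.1 SpiB DKO replicate 1. In the interaction 0 members passed with the block (10.3% of all genes) or without it (1.48%), with 0 at an unadjusted p under 0.05 without the block. The 22 falls and 1 rise were 6 calls without control replicate 2 and 5 without PU.1 SpiB DKO replicate 1, and 15 calls with all 24 libraries in 1 fit. Plasma cell marker sums were 1640 and 1673 CPM in PU.1 SpiB DKO and 672 and 702 CPM in control. Of these Xbp1 made 1084 and 1092 CPM against 371 and 358 CPM, and Irf4 499 and 469 CPM against 267 and 317 CPM. Prdm1 was at 65.9 and 58.5 CPM against 22.9 and 18.3 CPM, and Igj at 15.2 and 12.6 CPM against 2.15 and 1.33 CPM. Only Sdc1 overlapped, at 8.46 and 7.65 CPM against 8.70 and 7.48 CPM. Their part in the difference was not tested.

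**Figure D4:**
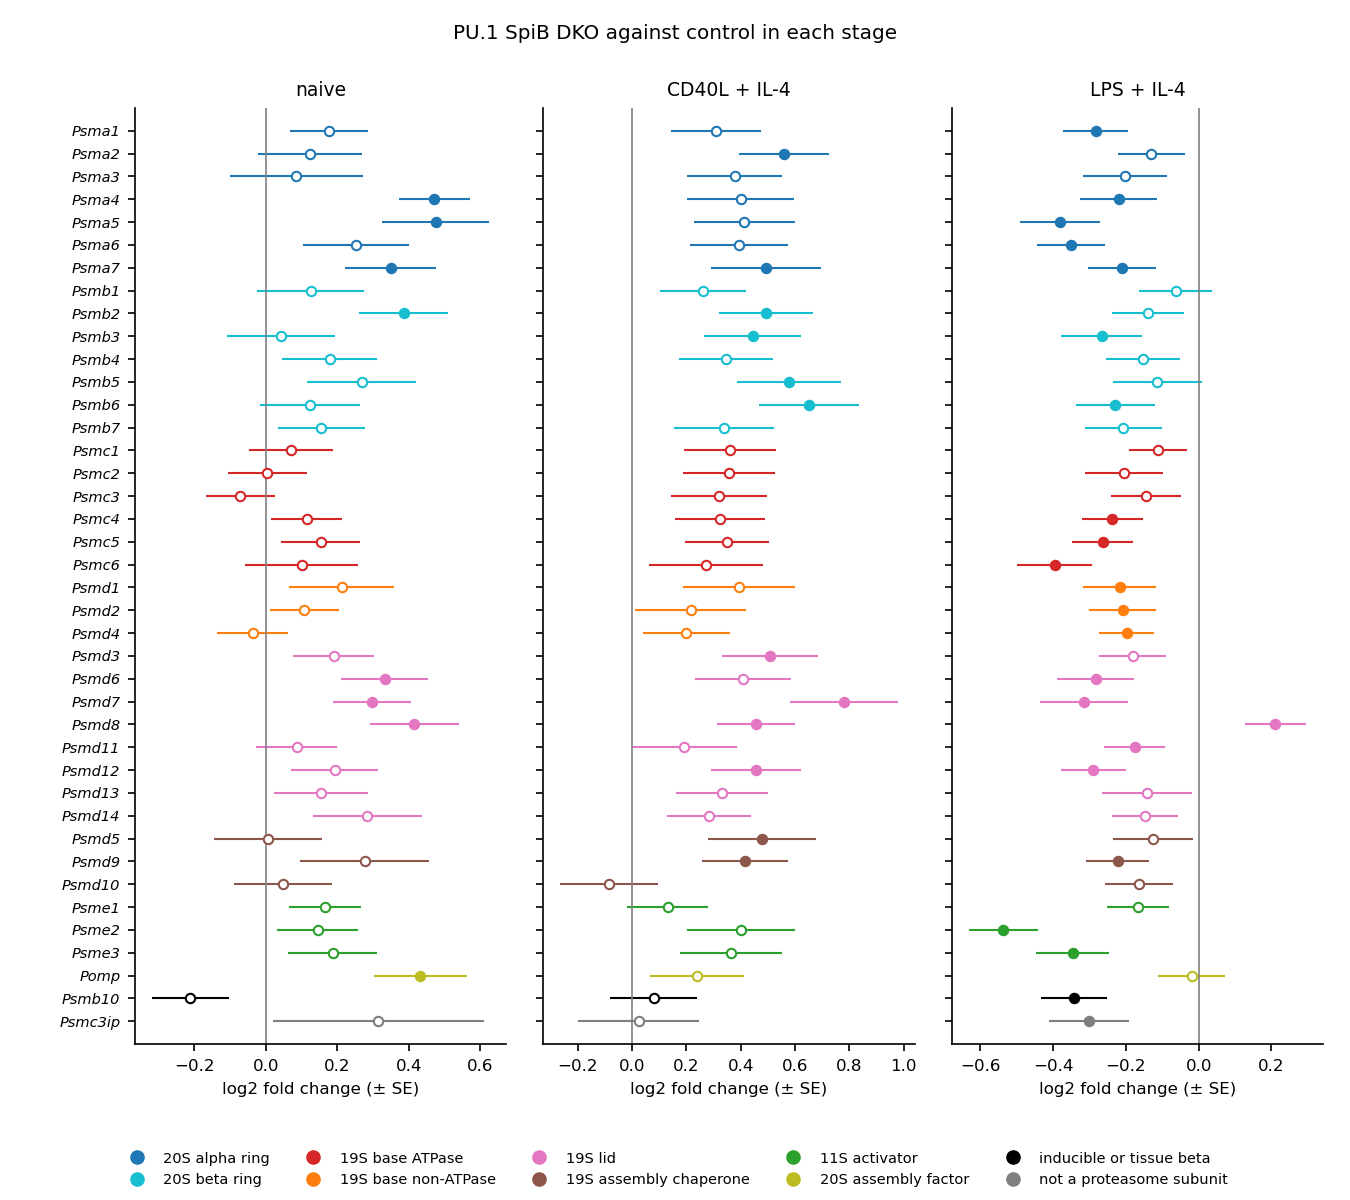
Log2 fold change (± SE) of each member in PU.1 SpiB DKO against control in each stage, 2 libraries a group, in 3 panels with separate axes. Filled points passed at an adjusted p under 0.15. Most values lie right of 0 in naive and CD40L + IL-4 cells and left of 0 after LPS + IL-4, apart from Psmd8.

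Whether the double mutant effect differs between stages was tested by the interaction of genotype and stage in the fit of all 24 libraries. Between the cultures, the effect of PU.1 SpiB DKO was lower after LPS + IL-4 than after CD40L + IL-4 for 35 of the 40 members (15.2% of all genes), and 25 were DE and lower (10.5%). Psmd7 had the largest difference, -1.18 ± 0.23 (adjusted p = 0.0033), from an effect of 0.78 after CD40L + IL-4 to -0.32 after LPS + IL-4 in the stage fits. Psme2 differed by -1.02 (adjusted p = 0.0049), Psmb6 by -0.96 (adjusted p = 0.0091) and Psma5 by -0.88 (adjusted p = 0.016). Of the other catalytic subunits, Psmb5 differed by -0.77 and Psmb7 by -0.63. The other DE members were Psma6 (-0.83), Psma7 (-0.79), Psma2 (-0.77), Psma4 (-0.70), Psma1 (-0.67) and Psma3 (-0.66) of the alpha ring, Psmb3 (-0.79) and Psmb2 (-0.71) of the beta ring, Psmd12 (-0.83), Psmd6 (-0.78), Psmd3 (-0.77), Psmd1 (-0.69), Psmc6 (-0.75), Psmc5 (-0.70), Psmc2 (-0.65) and Psmc4 (-0.65) of the base and lid, the chaperones Psmd9 (-0.72) and Psmd5 (-0.69), and Psme3 (-0.80). Psmb10 (-0.51) and Psme1 (-0.38) passed and were not DE. Psmd10, Psmd8, Pomp, Psmb1 and Psmc3ip did not pass. The count was 17 without CD40L + IL-4 PU.1 SpiB DKO replicate 2, 17 without LPS + IL-4 control replicate 2 and 20 without LPS + IL-4 PU.1 SpiB DKO replicate 1.

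Against naive cells, the effect was lower after LPS + IL-4 for 20 members (16.2% of all genes), 10 of them DE (10.0%). Psma5 (-0.92, adjusted p = 0.0099), Psma4 (-0.76), Psme2 (-0.75) and Psmc3ip (-0.69) had the largest differences, and Psmd6 (-0.68), Psmd7 (-0.68), Psma6 (-0.66), Psma7 (-0.62), Psme3 (-0.60) and Psmb2 (-0.59) were the other DE members. Pomp (-0.51) and Psme1 (-0.40) passed, while Psmb5 (-0.44), Psmb6 (-0.42), Psmb7 (-0.42) and Psmb10 (-0.20) did not. The effect after CD40L + IL-4 did not differ from that in naive cells past the test for any member by edgeR (16.9% of all genes passed), and 4 members had an unadjusted p under 0.05. Its median difference was 0.20. These comparisons share control and double mutant libraries with those above. By the study's read coverage, naive double mutant cells partly kept the floxed exon of Spi1. Its deletion was complete after CD40L + IL-4 and similarly high after LPS + IL-4. Stage and the extent of Spi1 loss therefore cannot be told apart in the comparisons with naive cells. The 20 calls were 4 without LPS + IL-4 control replicate 2, 6 without LPS + IL-4 PU.1 SpiB DKO replicate 1, 7 without naive control replicate 2 and 10 without naive PU.1 SpiB DKO replicate 1, and the 0 calls were 5 without CD40L + IL-4 PU.1 SpiB DKO replicate 1 and 1 without naive control replicate 2 or naive PU.1 SpiB DKO replicate 1.

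The genes around the proteasome were followed as a list of 33 that passed the filter: assembly chaperones, bound factors, ubiquitin genes and shuttles, and regulators. In control cells 13 were higher and 11 lower after CD40L + IL-4 than in naive cells (32.9% and 32.2% of all genes), and 19 and 10 after LPS + IL-4 (39.2% and 38.1%). In PU.1 SpiB DKO 3 were higher and 2 lower in naive cells (18.2% and 16.6%), 9 and 0 after CD40L + IL-4 (12.5% and 12.7%), and 2 and 11 after LPS + IL-4 (25.6% and 22.4%). Ngly1, the enzyme that activates Nfe2l1 by removing its sugars, was at 34.0 and 32.3 CPM in LPS + IL-4 control and at 56.5 and 51.2 CPM in PU.1 SpiB DKO, a rise of 0.70 ± 0.10 (adjusted p = 0.00066). After CD40L + IL-4 it rose by 1.17 in PU.1 cKO and 0.61 in PU.1 SpiB DKO. Nfe2l1 itself fell by 0.52 in naive SpiB KO (adjusted p = 0.13) and did not pass in the double mutant of any stage. Psmg1, a chaperone of the alpha ring, was DE and higher in naive PU.1 SpiB DKO (0.59), and Rps27a, a ubiquitin fusion gene, in naive PU.1 cKO (0.93). Psmb8 and Psmb9 fell by 0.43 and 0.19 in LPS + IL-4 PU.1 SpiB DKO.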

How the data were processed

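RNA-seq reads were aligned by the authors with Subread to GRCm38 (mm10), and the deposited raw counts are uniquely mapped reads per RefSeq gene from featureCounts. The deposited log2 RPKM values were quantile normalized by the authors, naive and CD40L + IL-4 together and LPS + IL-4 apart. Samples were grouped by their labels, and the stage was read from titles. Genes with at least 0.5 CPM in 2 libraries were tested with edgeR 4.0.16 (R 4.3.3), by TMM normalization and the quasi-likelihood F-test, on the 8 libraries of a stage or, for stage comparisons, on all 24, with Benjamini-Hochberg adjustment over all genes. SE is the log2 fold change over the root of F. The 2 libraries a group are the labels' biological replicates, and differed by 10.2 to 105 times the counting variance (chi-square per degree of freedom over genes). Same-number libraries correlated at 0.0918 to 0.25 in naive cells, -0.0702 to 0.266 after CD40L + IL-4 and 0.386 to 0.514 after LPS + IL-4, where the numbers were taken as pairs from the data alone. The scripts were tested on simulated data. Alternatives used DESeq2 1.42.0 and limma 3.58.1 (voom). Rows without a symbol (517) could not be members, and they stayed in the library totals and, past the filter, in the tests. Named in a comparison were its DE members, its 4 largest rises and falls among those that passed, the catalytic subunits, Psmb10, Psme1, Psme2, Psme3 and Pomp. The members and lists were chosen with earlier results of these data known.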

Additional observations from a re-analysis of the deposited data

Results flagged for a closer look

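The double mutant effect on the members differed between stages in the test of the difference itself. It was lower after LPS + IL-4 than in naive cells for 20 members (16.2% of all genes) and lower after LPS + IL-4 than after CD40L + IL-4 for 35 members (15.2%), by edgeR's interaction test at an adjusted p under 0.15. Leaving out 1 library gave as few as 4 and 17. In the comparison with naive cells, stage and the extent of Spi1 loss cannot be told apart.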

How the results depend on the processing

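No called result changed direction. With 1 library left out, the members' median log2 fold change took either sign in the naive interaction (-0.14 to 0.04), the CD40L + IL-4 interaction (-0.02 to 0.29), CD40L + IL-4 SpiB KO (-0.15 to 0.15) and LPS + IL-4 PU.1 cKO (-0.11 to 0.09). The 364 gene results that no longer passed under an alternative kept their direction, and 2045 stayed on their side of the threshold. Counts below are members past the test, without the share of all genes in the same fit. At an adjusted p under 0.05, naive cells gave 1 over the 4 genotypes and 3 for the double mutant, CD40L + IL-4 gave 1, 0 for PU.1 cKO and 3 for the double mutant, LPS + IL-4 gave 3, 0 for PU.1 cKO and 9 for the double mutant, and the stage differences of the double mutant effect gave 5 for LPS + IL-4 against naive and 22 against CD40L + IL-4. DESeq2 gave 1 over the naive genotypes, 2 for CD40L + IL-4 PU.1 cKO and 1 for the effect after CD40L + IL-4 against naive, and DESeq2 size factors gave 1 over the naive genotypes. Voom with quantile normalization gave 6, 1 and 15 for the naive genotypes, PU.1 cKO and double mutant. All 24 libraries in 1 fit gave 1 over the naive genotypes, 22, 10 and 29 for the CD40L + IL-4 genotypes, PU.1 cKO and double mutant, and 3, 0 and 15 for those of LPS + IL-4. With no filter the CD40L + IL-4 genotypes gave 12 and PU.1 cKO 3, and without Psmc3ip and Psmb10 LPS + IL-4 PU.1 cKO gave 0. The cause was not tested.

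With the replicate block, naive cells gave 14 over the genotypes, 12 for PU.1 cKO, 8 for SpiB KO, 20 for the double mutant and 1 for the interaction. CD40L + IL-4 gave 24, 8 for PU.1 cKO, 29 for the double mutant and 1 for the interaction, and LPS + IL-4 gave 31, 3, 3 and 35 for the genotypes, both single losses and the double mutant. The effect after CD40L + IL-4 against naive gave 1 with the block. Shares of all genes with the block are given above for LPS + IL-4 only. The other block counts stand without that background, so whether they exceed it is not shown. In every stage the samples share only a number, and no pairing is known. The counts given above for naive and CD40L + IL-4 cells are without the block except where stated, although same-number replicates moved together in the members there too. They thus depend on whether the number is taken as a pair.

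Leaving out 1 library gave 1 to 5 over the naive genotypes, 0 to 3 for PU.1 cKO, 0 to 2 for SpiB KO and 1 to 12 for the double mutant. For CD40L + IL-4 these were 0 to 11, 0 to 1, 0 and 0 to 13, and for LPS + IL-4 1 to 20, 0, 0 to 3 and 5 to 34. The double mutant effect differences ranged over 0 to 5 for CD40L + IL-4 against naive, 4 to 26 for LPS + IL-4 against naive and 17 to 35 for LPS + IL-4 against CD40L + IL-4. With 2 libraries a group, 1 library can decide a count.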
